A study of Homo sapiens with 4 samples.

Results

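The region described here is the 2.10 Mb of human chromosome 8 that holds MYC, PVT1 and the distal enhancers of MYC, chr8:128700001-130800000 in hg19. Its limits are positions and no read value enters them, and it was divided into 2100 tiles of 1 kb, of which 2008 held at least 1 read in some library, out of 2598309 such tiles in the genome and 130978 on chromosome 8. MYC lies at chr8:128748315-128753680 and PVT1 at chr8:128806779-129113499, and distances below are counted from the MYC start, positive towards PVT1. In the order of a RefSeq gene table of another build (GRCh38), the genes that follow PVT1 are LINC02912, LINC00824, LINC00976, LINC00977, CCDC26 and GSDMC. An hg19 annotation was not used here, so sites are given by position and are assigned to no gene other than MYC and PVT1.

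The series holds 4 chromatin immunoprecipitation sequencing (ChIP-seq) libraries from wild-type K562 cells, an established human myeloid leukaemia line grown without treatment. An antibody against DPF2 gave 2 libraries of 7787444 and 13317496 reads, and an antibody against histone H3 crotonylated at lysine 14 (H3K14cr) gave 2 libraries of 10880366 and 17369133 reads. The labels do not say whether libraries of 1 antibody came from separate cultures, and within the region they differed by no more than the sampling noise (below), so each antibody counts as 1 sample. The p-values therefore measure counting and technical spread, no unprecipitated control library was analysed here, and a read level cannot be told apart from DNA copy number.

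MYC encodes a transcription factor that drives cell growth and proliferation, and its activity in blood cells depends on enhancers on the PVT1 side of the gene. PVT1 is a long non-coding RNA gene whose body holds enhancers, and interference screens in K562 cells have placed enhancers of MYC both close to PVT1 and in a cluster far beyond it. DPF2 is a subunit of the BAF chromatin remodelling complex, and its double PHD finger binds histone H3 acylated at lysine 14. Crotonylation is such an acylation and is found at active promoters and enhancers.

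DPF2 and H3K14cr reads were densest in 2 parts of the region, separated by 1350 kb with a density near the chromosome's mean. The first ran from before MYC through PVT1, and the second was a compact stretch at 1802 to 2002 kb. H3K14cr was denser than DPF2 in both. Over the whole region the read density, relative to the rest of chromosome 8, was 1.67 (95% exact Poisson interval 1.63 to 1.71) and 1.66 (1.63 to 1.69) in the DPF2 libraries and 2.0 (1.96 to 2.04) and 2.0 (1.97 to 2.03) in the H3K14cr libraries. These levels rested on 7297, 12459, 11833 and 18959 reads, listed with both DPF2 libraries (replicate 1, then 2) before both H3K14cr libraries (replicate 1, then 2), an order used throughout. The intervals of the antibodies did not overlap, and those of libraries of 1 antibody did. The rest of chromosome 8 was itself low, at 0.684, 0.685, 0.662 and 0.665 of the density of the other chromosomes, so that against those chromosomes the region stood at 1.14, 1.14, 1.32 and 1.33. All intervals cover counting error only. A level divides the reads of a part by its full length, tiles without a read included. The rest of chromosome 8 was averaged over tiles with a read only. All levels are therefore somewhat too low, by more where unread tiles are many, and the intervals do not cover this.

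The boundaries of the stretches were set after the values were seen, from consecutive 50 kb windows with a level of at least 2 in all 4 libraries, and their levels are a description. The stretch around MYC and PVT1, from -48.3 to 452 kb, stood at 2.64, 2.65, 3.45 and 3.48 times the rest of the chromosome. It covered 23.8% of the region's length and held 37.7%, 37.9%, 41.1% and 41.4% of its reads. The middle, from 452 to 1802 kb, stood at 1.03, 0.997, 1.07 and 1.05, and 12 of its 27 windows were below 1 in every library. It had 1268 covered tiles on 1350 kb, so these values were lowered by tiles without a read. It held 64.3% of the length and 39.6%, 38.5%, 34.3% and 33.9% of the reads. The distal stretch had the highest levels of the 3, at 3.70, 3.69, 4.73 and 4.72, with 21.1%, 21.2%, 22.6% and 22.5% of the reads on 9.52% of the length. The last 50 kb, after 2002 kb, fell back to 1.16, 1.65, 1.70 and 1.79.

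**Figure D1:**
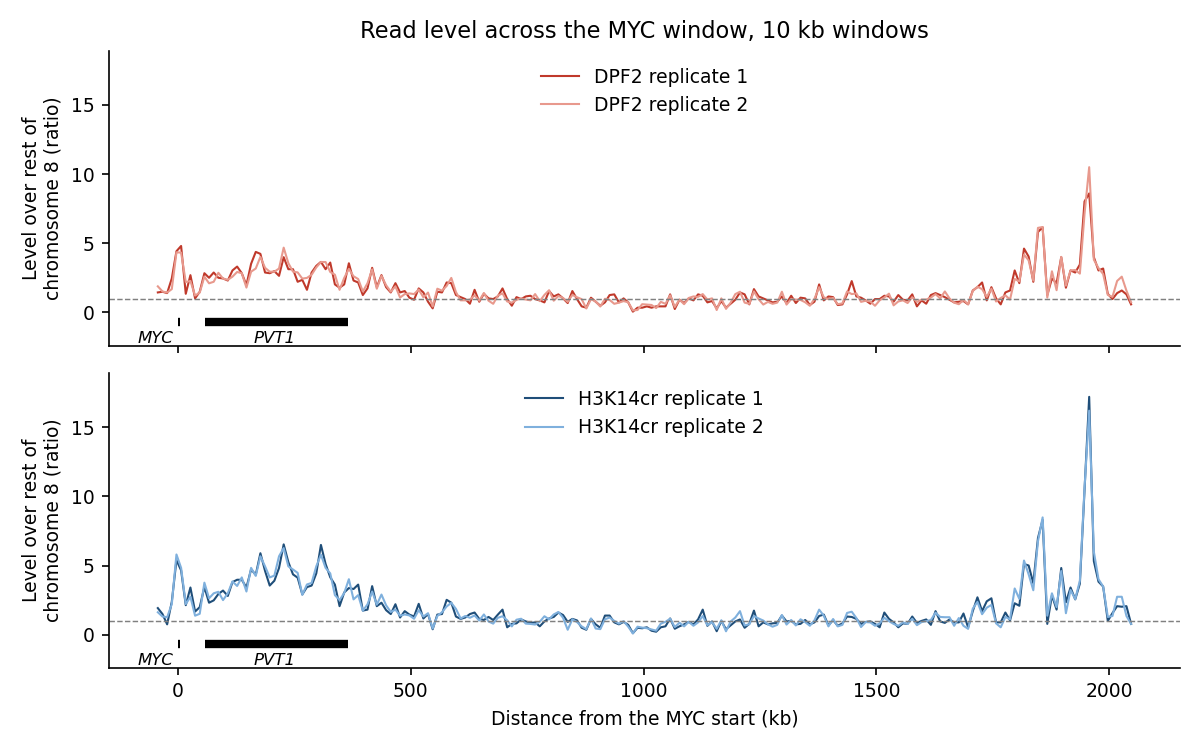
Read density in 10 kb windows divided by that of the rest of chromosome 8 (vertical axis, ratio) against distance from the MYC start in kb, with 1 line per library, DPF2 in the upper and H3K14cr in the lower panel; black bars mark MYC and PVT1 and the dashed line marks 1. The highest window, at 1952 to 1962 kb, stood at 8.60 and 10.5 for DPF2 and at 17.2 and 16.2 for H3K14cr.

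MYC was denser than PVT1, the only other gene measured here, for both antibodies. Its 5.37 kb stood at 6.89 and 7.10 times the rest of the chromosome in the DPF2 libraries and at 9.45 and 10.3 in the H3K14cr libraries. Signal was not spread evenly over the gene: both antibodies were high over the start and the first part of the gene, and DPF2 had a further maximum just beyond the end of the gene, where H3K14cr was lower than DPF2. The segments on either side of MYC were far lower, with 2.03, 1.92, 1.98 and 1.98 before the gene and 2.03, 2.04, 2.47 and 2.24 between MYC and PVT1.

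Over the 2 kb centred on the MYC start (chr8:128747315-128749314), the promoter from which the gene is read, the libraries held 31, 54, 75 and 104 reads, or 1.99, 2.03, 3.45 and 2.99 reads per 1000000 library reads (CPM) per kb. The H3K14cr libraries were both above the DPF2 libraries. Relative to the chromosome mean these were 7.36, 7.48, 13.1 and 11.3-fold. Against the surrounding 20 kb, the larger of the background estimates, the folds were 1.74 (95% exact Poisson interval 1.18 to 2.47), 1.92 (1.44 to 2.51), 3.07 (2.42 to 3.85) and 2.48 (2.02 to 3.0), because the 20 kb around MYC are themselves rich in reads. The call for enrichment needed a fold of at least 3 and an adjusted p of at most 0.001 in a one-sided exact Poisson test with Benjamini-Hochberg adjustment over the genome, in both libraries of an antibody. H3K14cr replicate 1 alone passed it (adjusted p = 5.4e-14), while H3K14cr replicate 2 missed the fold (adjusted p = 1.0e-13), and the DPF2 libraries had adjusted p-values of 0.14 and 8.0e-04. H3K14cr exceeded DPF2 at the MYC start by 1.57 times in pooled reads, scaled to library totals (95% exact binomial interval 1.21 to 2.06, from 179 and 85 reads).

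The tile at 1 to 2 kb into MYC (chr8:128749001-128750000) was the single tile of the gene that passed the call, for H3K14cr. It held 2.31, 2.85, 3.86 and 3.97 CPM, with folds of 3.26 and 3.21 in the H3K14cr libraries and of 1.96 and 2.65 in the DPF2 libraries. The tile at 6 kb (chr8:128754001-128755000), which starts just after the gene's end, held 2.57, 2.40, 0.92 and 1.5 CPM, so that here both DPF2 libraries were above both H3K14cr libraries. It was the highest DPF2 tile of the whole stretch around MYC and PVT1, ranked by the lower library. Its DPF2 level was 1.93 times that of H3K14cr in pooled reads (95% exact binomial interval 1.24 to 3.04, from 52 and 36 reads). The tile was singled out for its DPF2 reads, which raises this ratio. In the comparison over all tiles given below, no tile of the region was higher in DPF2.

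The change of order between the antibodies along MYC can be summed over blocks, which were drawn after the values were seen and carry no test. The 4 tiles from 128747001 to 128751000 held 2.25, 2.16, 3.33 and 3.25 CPM per kb, an H3K14cr to DPF2 ratio of 1.5 (1.25 to 1.80). The 2 tiles from 128753001 to 128755000 held 2.31, 1.73, 0.87 and 1.38, a ratio of 0.610 (0.435 to 0.853). Beyond them, at 8 kb, the signal dropped to 0.26, 0.15, 0.37 and 0.29 CPM, and the tile at -8 kb held 0.26, 0.23, 0.18 and 0.00.

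**Figure D2:**
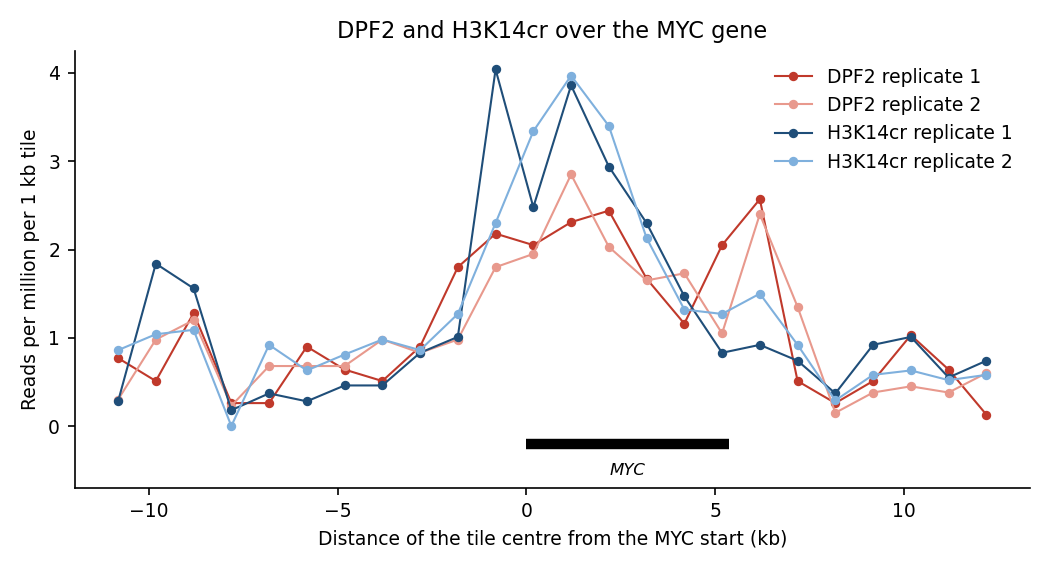
Reads per 1000000 library reads (CPM) in each 1 kb tile (vertical axis) against the distance of the tile's centre from the MYC start in kb, with 1 line per library; the black bar is MYC. Both H3K14cr libraries peak at the tile 1 kb into the gene or just before its start, and both DPF2 libraries have a second maximum, 2.57 and 2.40, in the tile 6 kb from the start.

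PVT1 carried a broad signal with few sharp maxima. Its 307 kb stood at 2.88 and 2.88 times the rest of the chromosome for DPF2 and at 3.99 and 4.06 for H3K14cr, and the H3K14cr to DPF2 ratio of pooled reads was 1.36 (1.31 to 1.41). The highest levels lay in the middle of the gene: the 50 kb from 202 to 252 kb stood at 3.17, 3.46, 4.97 and 5.17, the highest of the gene in every library except DPF2 replicate 1, which reached 3.56 from 152 to 202 kb. After the end of PVT1, up to 500 kb, the levels were 1.99, 2.01, 2.23 and 2.21.

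At the PVT1 start (2 kb, chr8:128805779-128807778), the promoter of the non-coding RNA, the libraries held 12, 34, 41 and 66 reads, or 0.77, 1.28, 1.88 and 1.90 CPM per kb. H3K14cr exceeded DPF2 by 1.74 times (1.22 to 2.51, from 107 and 46 reads), and the DPF2 libraries lay further apart than the H3K14cr libraries. Against the surrounding 20 kb the folds were 1.18 (0.608 to 2.06), 2.58 (1.78 to 3.60), 3.11 (2.23 to 4.21) and 2.86 (2.21 to 3.63), with adjusted p-values of 1.0, 1.3e-04, 1.1e-07 and 3.7e-11 in the exact Poisson test with Benjamini-Hochberg adjustment. Only H3K14cr replicate 1 met both conditions, so the PVT1 start was called for neither antibody. The 1 kb tile that holds the start (chr8:128806001-128807000) was called for H3K14cr, with 0.51, 1.65, 2.11 and 2.25 CPM and folds of 3.19 and 3.10. DPF2 replicate 2 also passed there (fold 3.14, adjusted p = 7.1e-04 in the exact Poisson test). DPF2 replicate 1, with 4 reads and a fold of 0.762, did not.

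Within PVT1, some tiles were higher in DPF2 and others in H3K14cr. The tile at 163 kb (chr8:128911001-128912000) held 2.31, 2.48, 1.75 and 1.67 CPM and the tile at 224 kb (chr8:128972001-128973000) held 2.05, 2.85, 1.93 and 1.61, with both DPF2 libraries above both H3K14cr libraries in each. The intervals of their DPF2 to H3K14cr ratios, 1.42 (0.940 to 2.15) and 1.48 (0.983 to 2.22), included 1. The tile at 226 kb (chr8:128974001-128975000) had the opposite order, with 0.51, 0.75, 1.65 and 1.84 CPM. The block at 309 to 315 kb (chr8:129057001-129063000) was the widest H3K14cr site inside PVT1 among the highest sites, and held 1.39, 1.41, 2.30 and 2.19 CPM per kb. Its tile at 313 kb held 2.05, 2.25, 3.12 and 2.71 CPM.

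The distal stretch held the highest tiles of the region for both antibodies, in several blocks. Narrower sites, such as those from 1816 to 1831 kb, came first. Wider blocks lay at 1845 to 1850 kb and 1853 to 1860 kb, and the widest of all ran from 1946 to 1964 kb. Between the blocks several runs of tiles fell to near 0. The whole segment from 1500 to 2000 kb stood at 2.19, 2.14, 2.65 and 2.61, against 0.899, 0.880, 0.864 and 0.903 for the segment from 1000 to 1500 kb.

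At 1846 kb the tile chr8:130594001-130595000 held 36, 70, 34 and 68 reads, or 4.62, 5.26, 3.12 and 3.91 CPM. It was the highest DPF2 tile of the region, and both DPF2 libraries were above both H3K14cr libraries. Its folds over the surrounding 20 kb were 3.69 and 4.23 in the DPF2 libraries, with adjusted p-values of 1.0e-07 and 5.2e-19 (exact Poisson test, Benjamini-Hochberg), and 1.88 and 2.44 in the H3K14cr libraries. It was the single DPF2 call of the region.

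The highest H3K14cr tile lay at 1955 kb (chr8:130703001-130704000) and held 22, 46, 78 and 103 reads, or 2.83, 3.45, 7.17 and 5.93 CPM. Here H3K14cr was above DPF2 in every pairing of libraries. It belonged to a block of 18 touching tiles from 1946 to 1964 kb (chr8:130694001-130712000) that held 2.23, 2.44, 3.63 and 3.59 CPM per kb. A narrower neighbour at 1942 to 1945 kb (chr8:130690001-130693000) held 2.18, 1.98, 3.22 and 3.22. The block at 1855 to 1859 kb (chr8:130603001-130607000) held 2.86, 2.63, 3.79 and 3.61. The single tile at 1972 kb (chr8:130720001-130721000) held 2.31, 2.40, 3.03 and 3.28 CPM.

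**Figure D3:**
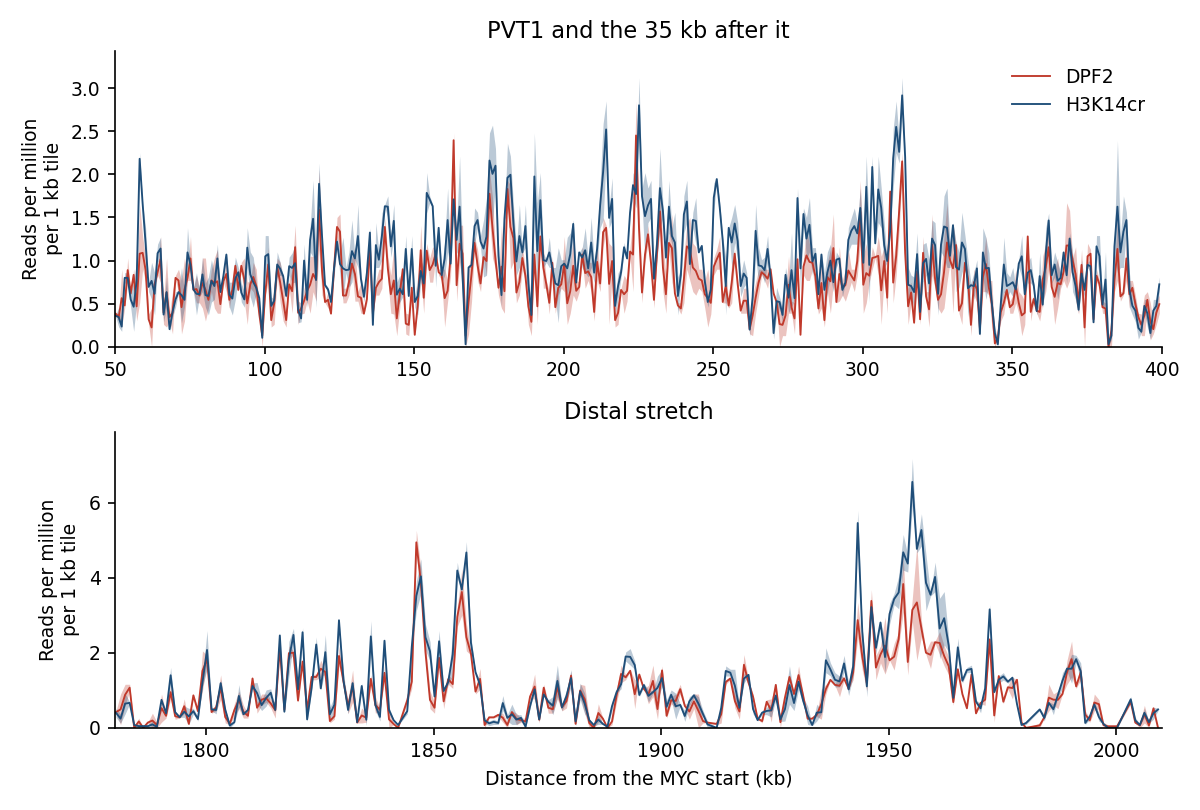
CPM per 1 kb tile (vertical axes, on different scales) against distance from the MYC start in kb, over PVT1 (upper panel) and the distal stretch (lower panel); lines are the mean of the 2 libraries of an antibody and bands run from the lower to the higher library. PVT1 shows many small maxima, such as the 3.12 and 2.71 of H3K14cr at 313 kb, and the distal stretch shows separate maxima up to 7.17 in H3K14cr replicate 1.

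Few of the region's tiles stood out from their own surroundings. With the chromosome mean or the surrounding 20 kb as background, whichever was larger, DPF2 was enriched in 1 of the 2008 tiles (0.0498%, against a background of 0.221% of tiles in the genome), H3K14cr in 4 (0.199%, against 0.425%) and both in 0 (against 0.165%). The DPF2 call was the tile at 1846 kb. The H3K14cr calls were the tiles in MYC and at the PVT1 start described above, and tiles at 1580 kb (chr8:130328001-130329000; 0.77, 0.83, 1.38 and 0.98 CPM) and at 1991 kb (chr8:130739001-130740000; 1.16, 1.05, 1.93 and 1.73 CPM). The 95% Wilson intervals of the region's shares, 0.00879 to 0.282% for DPF2, 0.0775 to 0.511% for H3K14cr and up to 0.191% for both, include the genome's shares. No difference from the genome was therefore detectable in these counts.

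The broad stretches became calls when the chromosome mean alone was the background, and the counts then moved by far more than 1.5 times. DPF2 was then enriched in 73 tiles (3.64%, background 1.11%), H3K14cr in 191 (9.51%, background 2.12%) and both in 66 (3.29%, background 0.950%). Of the DPF2 tiles 90.4% were also H3K14cr tiles, and of the H3K14cr tiles 34.6% were also DPF2 tiles, against 85.4% and 44.8% in the genome. Merged, they made 38 DPF2 sites, 28 of them a single tile, and 91 H3K14cr sites, 56 of them a single tile. The part of copy number in these counts was not tested.

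By stretch, those calls are a description, since the stretches were drawn from the same reads. The 498 covered tiles around MYC and PVT1 held 22 DPF2 and 106 H3K14cr tiles, 18 of them shared. The 194 covered tiles of the distal stretch held 50 DPF2 and 76 H3K14cr tiles, 47 of them shared. The 1268 tiles of the middle held 1 and 7, with 1 shared. PVT1 alone held 13 DPF2 and 89 H3K14cr tiles among 306. The H3K14cr libraries were deeper in sum. After every library was thinned to 7787444 reads, DPF2 was enriched in 46 of 1963 covered tiles (2.34%, background 0.839%), H3K14cr in 103 (5.25%, background 1.26%) and both in 37 (1.88%, background 0.652%). By stretch the thinned counts were 13 and 48 around MYC and PVT1 (8 shared), 32 and 55 in the distal stretch (29 shared), and 1 and 0 in the middle.

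Sites were ranked by the fold of their highest tile over the chromosome mean in the lower library, which is a value of that tile and not of the whole block and favours wide blocks. The 10 leading DPF2 sites began with the blocks at 1845 to 1849 kb (17.1-fold), 1946 to 1964 kb (11.4-fold) and 1855 to 1859 kb (11.1-fold). They went on with the end of MYC at 5 to 7 kb (8.87), 1942 to 1945 kb (8.87), the MYC start block at -1 to 4 kb (8.55), 163 kb in PVT1 (8.55), 1972 kb (8.55), 1816 kb (7.76) and 224 kb in PVT1 (7.60). The next site, at 312 to 314 kb and also in PVT1, had the same fold of 7.60 as the last of these. For H3K14cr the order was 1946 to 1964 kb (22.4-fold), 1942 to 1945 kb (19.4), 1853 to 1860 kb (16.5), MYC at -1 to 5 kb (14.7), 1845 to 1850 kb (13.5), 1972 kb (11.5), 1829 to 1831 kb (10.8), 309 to 315 kb in PVT1 (10.2), 222 to 227 kb in PVT1 (9.36) and 1821 kb (9.14). The 2 orders differed at the top: the DPF2 leader at 1845 kb ranked 5 for H3K14cr, and the end of MYC was not an H3K14cr site.

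Listed by a fold of at least 3 over the surrounding 20 kb in both libraries, with no test, there were 20 DPF2 tiles (0.996%, background 1.67%), 25 H3K14cr tiles (1.25%, background 1.90%) and 7 in both lists (0.349%, background 0.631%). They lay mostly where reads were few: 18 of the 20 DPF2 tiles and 21 of the 25 H3K14cr tiles were in the middle, and the median tile had 16 and 21 reads over both libraries (ranges 10 to 106 and 9 to 111). The highest fold, 16.7 and 8.0 for DPF2 and 12 and 8.57 for H3K14cr, was in the tile at 1019 kb (chr8:129767001-129768000), which held 5, 6, 3 and 6 reads. That highest fold thus rested on a handful of reads. Tiles just inside the threshold were those at 1166 kb for DPF2 (folds 3.0 and 4.0) and 620 kb for H3K14cr (3.03 and 3.75), and just outside it were those at 414 kb for DPF2 (5.53 and 2.97) and 607 kb for H3K14cr (4.0 and 2.95).

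By distance, the 20 DPF2 tiles lay at 607, 692, 712, 961, 1002, 1019, 1030, 1041, 1078, 1079, 1148, 1166, 1296, 1299, 1466, 1580, 1686, 1800, 1846 and 2041 kb. The 25 H3K14cr tiles lay at 1, 58, 537, 620, 692, 724, 890, 961, 1019, 1030, 1064, 1079, 1083, 1095, 1147, 1165, 1555, 1567, 1568, 1580, 1609, 1792, 1800, 1991 and 2040 kb. The shared ones were at 692, 961, 1019, 1030, 1079, 1580 and 1800 kb. The tile at 1800 kb (chr8:130548001-130549000), at the edge of the distal stretch, was the deepest shared one, with 1.93, 1.73, 1.56 and 2.59 CPM and folds of 3.06, 3.26, 3.06 and 4.05.

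H3K14cr exceeded DPF2 in the stretches rich in reads and not between them. This was not particular to the region. Over the 12488 enriched tiles of the genome compared below, the median log2 difference, DPF2 minus H3K14cr, was -0.33. It was -0.02 with median-of-ratios scaling in place of library totals. The ratio of pooled reads, scaled to library totals, was 1.27 (95% exact binomial interval 1.23 to 1.31) around MYC and PVT1, 1.02 (0.990 to 1.05) in the middle and 1.24 (1.19 to 1.29) in the distal stretch. In 50 kb windows the interval lay above 1 in 8 of 10, 2 of 27 and 4 of 4 windows, with medians of 1.27, 1.00 and 1.17. The highest ratios were 1.47 (1.36 to 1.60) at 202 to 252 kb, inside PVT1, and 1.43 (1.33 to 1.53) at 1952 to 2002 kb. The 50 kb that end in MYC had a ratio of 1.07 (0.964 to 1.19), so the rise at the MYC start did not extend over that window.

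**Figure D4:**
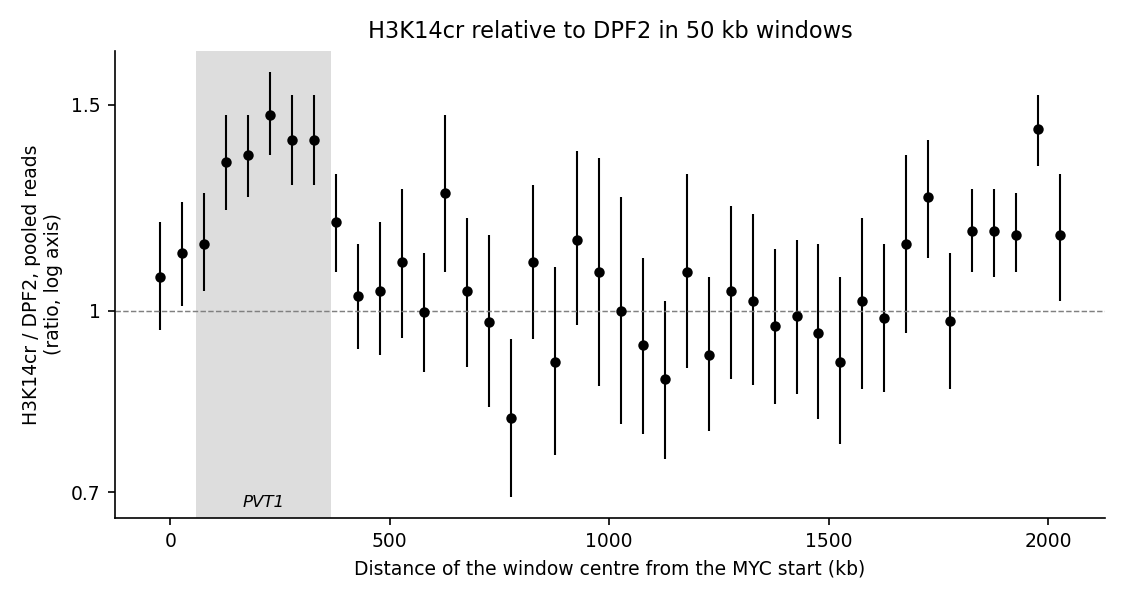
Ratio of pooled H3K14cr to pooled DPF2 reads, scaled to library totals (vertical axis, log scale), in each 50 kb window against the distance of its centre from the MYC start in kb; bars are 95% exact binomial intervals and the grey band is PVT1. Points inside PVT1 and beyond 1802 kb lie above the dashed line at 1, and those between scatter around it from 0.810 to 1.26.

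Single tiles were compared with limma (trend) on log2(CPM + 0.5), with Benjamini-Hochberg adjustment at 0.05. Of the 5 region tiles among the 12488 enriched tiles that averaged at least 10 reads per library, 3 passed at that threshold (35.3% of all tiles tested did). Each of the 5 had entered through a call for 1 antibody alone, which largely fixes the direction, so their differences are a description and support nothing. None of the 3 passed in the comparison over all tiles given next. The log2 difference, DPF2 minus H3K14cr, was 0.44 (SE 0.18, adjusted p = 0.046 by limma) at 1846 kb, -0.52 (SE 0.19, adjusted p = 0.029) at 1 kb in MYC, and -0.86 (SE 0.26, adjusted p = 0.0073) at the PVT1 start. At 1846 kb both DPF2 libraries were above both H3K14cr libraries, and at the other 2 tiles both were below. The tiles at 1580 kb (-0.36, SE 0.25, adjusted p = 0.25) and 1991 kb (-0.54, SE 0.24, adjusted p = 0.073) did not pass. With median-of-ratios scaling, which sets the median difference of these tiles near 0 (-0.02 instead of -0.33), 1 region tile passed, higher in DPF2. The calls of the genome then turned from 529 higher in DPF2 and 3877 higher in H3K14cr to 1127 and 667.

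Over all 255612 tiles of the genome that averaged at least 10 reads, 361 lay in the region and 11 of them (3.05%) were higher in H3K14cr by limma, against 1.19% of the tiles tested. None was higher in DPF2, against 0.202% of those tested. An unadjusted p of at most 0.05 by limma, in either direction, was found in 78 of the 361. The share of all tiles at that p was not counted, so this number cannot be read as particular to the region. The median log2 difference was -0.28 in the region and -0.11 over all tiles. Over the 12488 enriched tiles of the genome it was -0.33, so a median of this size was not particular to the region. In PVT1 the tiles were at 226 kb (-1.0, SE 0.26, adjusted p = 0.025 by limma), 310 kb (-1.12, SE 0.26, adjusted p = 0.0072) and 311 kb (-0.98, SE 0.25, adjusted p = 0.02). No tile of MYC passed in this comparison.

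The other 8 tiles were in the distal stretch. The largest of these differences was at 1954 kb (-1.12, SE 0.22, adjusted p = 0.00072 by limma), where the libraries held 1.41, 2.10, 4.60 and 4.15 CPM. The next tile, the H3K14cr maximum at 1955 kb, differed by -0.95 (SE 0.18, adjusted p = 0.00048). The tiles at 1943, 1957, 1958 and 1967 kb differed by -0.83, -0.87, -0.78 and -1.0, with adjusted p-values of 0.0085, 0.0059, 0.047 and 0.036 by limma. At 1849 kb, 3 tiles beyond the DPF2 maximum, the difference was -1.05 (adjusted p = 0.015), and at 1857 kb it was -0.83 (adjusted p = 0.016). Each of the 11 tiles was higher in both H3K14cr libraries than in both DPF2 libraries. edgeR called 12 of the 361 tiles (3.32%), all higher in H3K14cr, against 3431 of the 255612 tiles of the genome. With median-of-ratios scaling 3 were left (0.831%), against 765 of the 255612.

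The maxima were also compared at the resolution of the 100 bp bins, as the centre of the 300 bp with the most reads. Each library's bins lie on a grid of its own, so distances under about 100 bp are within the bin size. Among 13 sites, the DPF2 libraries put their maximum within 100 bp of each other in 5, and the H3K14cr libraries in 2. Single maxima rested on as few as 6 reads in 300 bp. Of those 5 sites, the ones at 163, 1816 and 1972 kb were single 1 kb tiles, in which maxima cannot lie far apart. In the 2 wider sites of the 5, both H3K14cr maxima were over 300 bp from both DPF2 maxima.

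Those 2 sites were leading DPF2 sites of the distal stretch. At 1845 to 1850 kb the DPF2 maxima lay at 130594483 and 130594552, with 19 and 28 reads in 300 bp, and the H3K14cr maxima at 130595743 and 130593977, on opposite sides. At 1853 to 1860 kb the DPF2 maxima lay at 130603983 and 130604052 and the H3K14cr maxima at 130605743 and 130605677, between 1625 and 1760 bp away. Around the centre of the first site, 300 bp held 2.440, 1.802, 1.103 and 0.921 CPM, and the DPF2 to H3K14cr ratio was 2.06 (95% exact binomial interval 1.25 to 3.44). At 600 bp before it, the libraries held 0.642, 0.601, 1.011 and 1.554 CPM and the ratio was 0.458 (0.224 to 0.879). Around the centre of the second site the values were 2.183, 1.277, 1.654 and 1.267 CPM, with a ratio of 1.14 (0.699 to 1.84), and 1800 bp beyond it the ratio was 0.495 (0.266 to 0.879). The centres were placed on the DPF2 maxima, which raises DPF2 there, and these values are a description with no test.

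**Figure D5:**
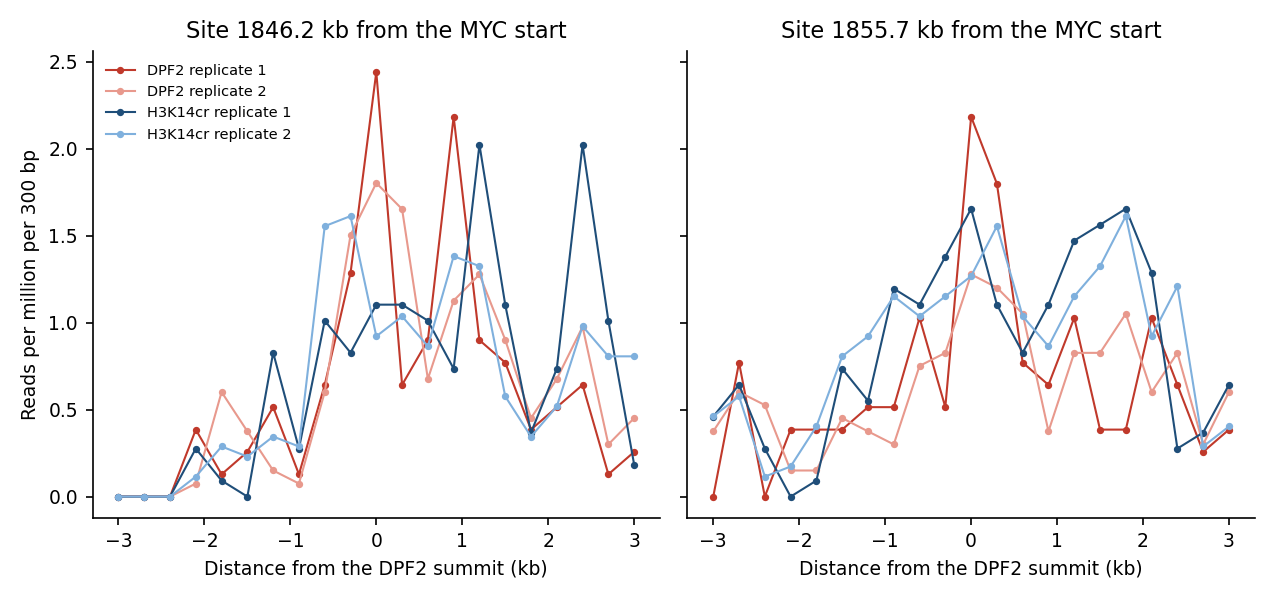
CPM in 300 bp (vertical axis) against distance from the DPF2 maximum in kb, for the site 1846.2 kb (left panel) and the site 1855.7 kb (right panel) from the MYC start, with 1 line per library. At the left site both DPF2 libraries (2.440 and 1.802) are above both H3K14cr libraries (1.103 and 0.921) at the centre; at the right site both H3K14cr libraries are above both DPF2 libraries around 1.8 kb.

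Libraries of the same antibody agreed within sampling noise in the region. Their chi-square, per degree of freedom, was 0.991 over 1913 tiles for DPF2 and 0.965 over 1969 tiles for H3K14cr, where 1 is counting noise, and 1.12 to 1.16 between antibodies. In 210 windows of 10 kb it was 0.950 and 1.08 within and 1.62 to 1.77 between. Across these windows, which share libraries and copy number and are no replicates, Spearman's rho was 0.917 and 0.941 within an antibody and 0.885 to 0.940 between antibodies. The antibodies thus followed the same course along the locus and differed in the local amounts given above.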

How the data were processed

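Signal was deposited by the authors per 100 bp bin, scaled to 10000000 reads per library and rounded to 2 decimals. The submitters' processing notes name Bowtie2 and the builds mm9 and hg19; how duplicates and filters were handled is not given in the sources used here. Coordinates were read as hg19 because the chromosome 8 bins run past its end in GRCh38. Division by the value of 1 read gave whole reads for all but 1, 3, 4 and 0 values (tolerance 0.005), with the totals printed above.

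Each bin was assigned by its centre to a 1 kb tile. Enrichment was called per library by an exact Poisson test (one-sided), with the mean of the chromosome or of the surrounding 20 kb, whichever was larger, as background and the tile itself left out (Benjamini-Hochberg adjusted p at most 0.001 over the genome, fold at least 3), in both libraries of an antibody. Since whole reads were recovered, levels, folds and ratios carry 95% exact intervals, and shares of tiles carry 95% Wilson intervals. limma 3.58.1 and edgeR 4.0.16 (R 4.3.3) compared antibodies; other steps used scipy 1.17.1, pandas 2.3.3, numpy 2.4.6 and matplotlib 3.10.9 in Python 3.11.15. The scripts were tested on simulated data.

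MYC and PVT1 were always described. Sites were accounted for by distance, with the 10 of highest fold per antibody and each tile passing the comparison given in full. The region, genes and tests were chosen with earlier results of these data known. Alternatives covered the background, tile size, fold, scaling, filter, tool, replicate block and each library left out. Sequences of the region are not reported here.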

Additional observations from a re-analysis of the deposited data

How the results depend on the processing

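Of 72 alternative values, 31 kept their call, lay within 1.5 times of a count or within the error of a level. Another 36 moved further and 5 newly passed a threshold. Tiles differing between antibodies were labelled only by their count against the 3 of the main comparison, so a change of direction was not recorded. The counts of enriched tiles depended most on the background. For DPF2 (1 tile) they were 4 with a 50 kb background, 73 with the chromosome mean, 20 with the fold alone, 11 with the libraries of an antibody summed, 2 with 500 bp tiles, 0 at a fold of 5 and 5 to 8 with 1 library left out. For H3K14cr (4 tiles) they were 8, 191, 25 and 19 for the first 4 of these, 2 with 2 kb tiles, 0 at a fold of 5 and 9 to 15 with 1 library left out. For both (0 tiles) they were 1, 66, 7 and 5, and 0 to 3 with 1 library left out. With libraries thinned to 7787444 reads and the chromosome mean, an alternative added after the data were seen, they were 46, 103 and 37. The genome's shares with the chromosome mean, the fold alone and thinning are given above. With 1 library left out, 8249 to 12881 tiles of the genome were called for DPF2 and 14883 to 17458 for H3K14cr. The other counts stand without a share of the genome and show nothing particular to the region.

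The level of the region over the rest of chromosome 8 (1.66 and 2.0, pooled over the libraries of DPF2 and H3K14cr) was 1.14 and 1.33 over other chromosomes, and 1.68 and 2.03 over tiles enriched for neither antibody. The pooled H3K14cr fold at the MYC start (2.7) passed the threshold with a 50 kb background (4.11) and was 2.48 to 3.07 with 1 library left out. That at the PVT1 start (2.95) passed with a 1 kb tile (3.13) and a 50 kb background (3.23) and was 2.86 to 3.11 with 1 library left out. The DPF2 fold at the PVT1 start was 2.58 without replicate 1 and 1.18 without replicate 2.

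The tiles differing between antibodies (3, with 1 higher in DPF2 and 2 in H3K14cr) numbered 2 with edgeR, both higher in H3K14cr. With median-of-ratios scaling 1 was left, and 1 on the fold over the local background, each higher in DPF2. With 1 library left out, the median log2 difference, DPF2 minus H3K14cr, of the 5 tested tiles was -0.53 to -0.33, against -0.52. Such a fit rests on 1 library for an antibody, so its number of passing tiles is not given. The median does not show that the 3 tiles still pass. Over all tiles that averaged at least 10 reads, the differing tiles numbered 11 with limma. In fits added after the data were seen, they numbered 12 with edgeR, 13 with the replicate block and 3 with median-of-ratios scaling. All of these were higher in H3K14cr. Over the genome, tiles higher in H3K14cr numbered 3032 with limma, and 3431, 3630 and 765 in the added fits, of 255612 tested. With the replicate block the main comparison again gave 3 tiles in the region, and 4285 instead of 4406 in the genome. Same-numbered libraries did not deviate together (correlation 0.001 over 255612 tiles), so they share only a number. Depth limits single tiles: a listed tile with a fold of at least 3 held a median of 16 DPF2 or 21 H3K14cr reads.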
